A study of Arabidopsis thaliana with 305 samples.

Results

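Cysteine-rich receptor-like kinases (CRKs) are plant cell-surface proteins, and the members described here are 40 of the 25320 genes in a table of leaf messenger RNA counts from Arabidopsis thaliana. They were chosen by gene identifier as the family carrying DUF26 domains. The rule itself uses no measured value, but the choice was made with earlier results of these data known. RefSeq gives 37 of them the CRK name as their symbol and 3 as a synonym. Those 3 are CRK9 (EP1), CRK17 (EMB1290) and CRK45 (ARCK1), and the RefSeq synonym of CRK45 calls it a receptor-like cytosolic kinase, so the class name is least secure for that member.

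A typical CRK has a pair of DUF26 domains outside the cell, each built around a motif of spaced cysteines, then a membrane helix and a kinase domain inside the cell. The family is known for reactive oxygen signalling, for pattern-triggered immunity, in which conserved parts of microbes are sensed, and for hypersensitive cell death. CRK2 phosphorylates the NADPH oxidase RBOHD, CRK4, CRK6 and CRK36 associate with the flagellin receptor FLS2, CRK28 acts with the co-receptor BAK1, and raised expression of CRK4, CRK5, CRK13, CRK19 or CRK20 is known to cause cell death.

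Leaves came from hand-infiltrated plants of 4 genotypes, and the series asked how far immunity set off by single effectors needs the RNL helper proteins, which act downstream of NLR receptors. The mutants were helperless, which lacks both helper families, nrg1 (nrg1.1 nrg1.2) and the adr1 triple mutant, set against the accession Col-0. The series text names the bacterium as Pf0, a Pseudomonas fluorescens strain equipped to inject effectors, while the labels' protocol names Pst DC3000 strains, for growth curves. It carried AvrRps4, AvrRpt2, AvrRpm1 or an empty vector (EV). Samples were taken at 0.5, 4 and 8 h and from leaves that were not infiltrated (T0), with n = 3 in each of 52 groups. The labels do not say that replicates were separate plants, so p-values measure the spread between these samples, which may be technical. Leaf discs hold several cell types, and fewer cells of a type cannot be told apart from less RNA per cell.

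Each replicate held 4276389 to 28926563 counts (median 11021790), and levels are given as CPM, that is counts scaled to a common library total after TMM scaling. Genotype labels were checked by dividing each library's ADR1-L1 counts by its ADR1-L2 counts, since leaves labelled adr1 and helperless carried far more ADR1-L1 transcript. Under EV at 0.5 h ADR1-L1 averaged 5995 CPM in adr1 and 5869 CPM in helperless leaves, against 325 CPM in Col-0, while NRG1.1 averaged 201 CPM in nrg1 against 209 CPM in Col-0, so that transcript checks nothing. In infiltrated leaves the ratio was 32.64 to 658.97 in 135 libraries labelled adr1 or helperless and 1.15 to 5.56 in 137 labelled nrg1 or Col-0. It went against the label in 10 others. Of these 10, 7 belong to replicate 3 under EV at 8 h, in all 4 genotypes, 2 to replicate 2 of adr1 with AvrRpm1 at 8 h and 1 to replicate 3 of nrg1 with AvrRpm1 at 4 h. All were kept under their labels, and counts that moved by more than 1 member without them are given both ways. Of the 2 libraries of nrg1 under EV at 8 h, replicate 3, 1 was against its label (ratio 44.18) and 1 was not (2.07). In T0 libraries the ratio was 2.39 to 42.16 for adr1 and helperless and 1.51 to 3.67 for nrg1 and Col-0, which overlap, so T0 labels could not be checked this way.

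Messenger RNA of most members rose within 0.5 h of infiltration with EV bacteria. Of 38 members with enough counts to test, 29 were higher and 1 was lower in Col-0 under EV at 0.5 h than at T0, where a called gene has an adjusted p under 0.05 in edgeR's quasi-likelihood test with Benjamini-Hochberg adjustment and a log2 fold change of 1 or more in size. Over all 19687 genes tested, 14% were called higher and 8.6% lower. The median log2 fold change was 2.46 over the 38 members and -0.03 over all genes. The members left out of the test were CRK25, with 2 counts over all samples, and CRK33, with 11. T0 leaves were not infiltrated, so this contrast joins the syringe, the bacterium and elapsed time, which cannot be told apart.

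CRK10, CRK11 and CRK14, members of a tandem array of 20 (CRK5 to CRK24) on chromosome 4, were among the 21 members with their highest mean at 0.5 h. CRK10 (AT4G23180), of which a gain-of-function allele is known to switch on defence, had 67.7, 18.9 and 70.9 CPM at T0, 876, 1400.2 and 630.5 CPM at 0.5 h, 28.2, 21.7 and 27.5 CPM at 4 h and 18.6, 17.4 and 14.2 CPM at 8 h under EV. All 3 replicates at 0.5 h lay far above those at T0, 4 h and 8 h. Those at 8 h lay below every T0 replicate, the closest at 18.6 against 18.9 CPM. Its log2 fold change against T0 was 4.21 ± 0.47 at 0.5 h (SE, n = 3, edgeR, adjusted p = 5.81e-13), -1.03 ± 0.42 at 4 h (adjusted p = 0.0278) and -1.65 ± 0.43 at 8 h (adjusted p = 0.000657). The 4 h value sat at the threshold and was not called with RLE factors (-0.99), in DESeq2 (-0.99), with only the compared groups in the fit (-1.02, adjusted p = 0.083) or when replicate 1 (-0.91) or replicate 3 (-0.79) was left out. The 8 h value was not called without replicate 3 (-1.26, edgeR, adjusted p = 0.0634).

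CRK11 (AT4G23190), which lies tail to tail with CRK10, rose as early but stayed up. It had 13.6, 5.41 and 23.1 CPM at T0, 477, 549 and 575 CPM at 0.5 h, 204, 199 and 224 CPM at 4 h and 169, 94.6 and 162 CPM at 8 h. Every EV replicate lay above every T0 replicate, with log2 fold changes of 5.25 ± 0.48, 3.90 ± 0.45 and 3.34 ± 0.44 at 0.5, 4 and 8 h (edgeR, adjusted p = 3.42e-17, 2.33e-12 and 3e-10). CRK14 (AT4G23220) followed a like course, with 13.3, 3.26 and 21.5 CPM at T0, 493, 594 and 438 CPM at 0.5 h, 84.0, 74.3 and 70.0 CPM at 4 h and 54.3, 58.2 and 52.9 CPM at 8 h. CRK41 (AT4G00970), outside the array, had 44.6, 9.90 and 67.2 CPM at T0, 256, 254 and 125 CPM at 0.5 h, 22.5, 17.3 and 20.6 CPM at 4 h and 8.98, 7.03 and 13.04 CPM at 8 h. It peaked early and stood lower than T0 at 8 h (-2.06 ± 0.43, edgeR, adjusted p = 3.03e-05), although 1 of the 8 h replicates lay above the lowest T0 replicate. T0 replicate 2 was the lowest of the T0 replicates for CRK10, CRK11, CRK14 and CRK41.

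Other members had their highest mean at 4 h, which for CRK39 was close to that at 0.5 h. CRK13 (AT4G23210), whose overexpression is known to raise salicylic acid and resistance, had 15.8, 7.81 and 3.87 CPM at T0, 69.1, 22.7 and 31.0 CPM at 0.5 h, 896, 515 and 714 CPM at 4 h and 670.2, 589.5 and 555 CPM at 8 h. Replicates of the later times did not overlap the earlier ones, and log2 fold changes against T0 were 2.16 ± 0.65, 6.27 ± 0.77 and 6.04 ± 0.76 (edgeR, adjusted p = 0.00573, 2.63e-11 and 8.71e-11), the 0.5 h call being lost when replicate 2 or replicate 3 was left out (adjusted p = 0.0598 and 0.0879). CRK20 (AT4G23280), a cell death gene when overexpressed, had 0, 0.738 and 0.143 CPM at T0, 3.59, 4.66 and 4.90 CPM at 0.5 h, 121, 64.7 and 53.2 CPM at 4 h and 57.3, 19.9 and 37.9 CPM at 8 h. CRK39 (AT4G04540) was close to absent at T0, at 0.0726, 0.123 and 0.573 CPM, and then had 19.2, 28.1 and 45.7 CPM at 0.5 h, 32.4, 26.5 and 44.6 CPM at 4 h and 21.7, 9.83 and 18.9 CPM at 8 h. Its log2 fold changes of 6.88 ± 0.88, 7.04 ± 0.88 and 6.00 ± 0.86 (edgeR, adjusted p = 8.75e-11, 4.93e-11 and 5.57e-09) show an early rise that was kept.

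Promoters are shown for members with their highest mean at 0.5 h (CRK10, CRK11, CRK41) and at 4 h (CRK13), and for CRK39. The 4 h level of CRK39 was not called apart from its 0.5 h level (0.15 ± 0.60, edgeR, adjusted p = 0.846). Each window runs from 250 bases before to 50 bases after the annotated gene start, 5′ to 3′ on the gene's strand, read from the TAIR10.1 genome of RefSeq. Capitals mark TTGAC, the core of the W-box bound by WRKY transcription factors, or its reverse complement GTCAA. CRK10 lies on the plus strand with its window at chr4:12137745-12138044, CRK11 on the minus strand at chr4:12143809-12144108, CRK41 on the plus strand at chr4:418077-418376, CRK39 on the plus strand at chr4:2259248-2259547 and CRK13 on the minus strand at chr4:12151589-12151888.
CRK10: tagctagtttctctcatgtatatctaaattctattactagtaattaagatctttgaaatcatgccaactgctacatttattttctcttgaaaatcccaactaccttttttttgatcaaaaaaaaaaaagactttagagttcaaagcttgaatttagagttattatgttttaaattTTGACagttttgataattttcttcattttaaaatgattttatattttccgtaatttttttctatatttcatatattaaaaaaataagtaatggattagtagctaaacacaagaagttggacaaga
CRK11: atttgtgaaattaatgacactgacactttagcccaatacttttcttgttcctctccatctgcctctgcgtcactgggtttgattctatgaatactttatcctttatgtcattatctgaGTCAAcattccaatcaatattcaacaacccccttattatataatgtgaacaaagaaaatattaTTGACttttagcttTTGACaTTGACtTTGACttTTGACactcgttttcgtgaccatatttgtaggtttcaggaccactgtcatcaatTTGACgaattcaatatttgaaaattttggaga
CRK41: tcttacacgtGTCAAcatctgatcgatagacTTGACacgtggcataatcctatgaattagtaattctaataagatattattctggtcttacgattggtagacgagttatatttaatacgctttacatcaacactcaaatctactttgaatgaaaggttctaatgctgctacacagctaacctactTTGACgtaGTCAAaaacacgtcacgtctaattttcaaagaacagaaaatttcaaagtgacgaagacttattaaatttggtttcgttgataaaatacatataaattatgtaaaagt
CRK39: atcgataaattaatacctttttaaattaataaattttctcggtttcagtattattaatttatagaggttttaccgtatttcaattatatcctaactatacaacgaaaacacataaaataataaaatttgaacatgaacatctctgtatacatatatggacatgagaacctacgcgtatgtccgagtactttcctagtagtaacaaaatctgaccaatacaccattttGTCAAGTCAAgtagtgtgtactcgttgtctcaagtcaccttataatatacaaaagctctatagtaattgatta
CRK13: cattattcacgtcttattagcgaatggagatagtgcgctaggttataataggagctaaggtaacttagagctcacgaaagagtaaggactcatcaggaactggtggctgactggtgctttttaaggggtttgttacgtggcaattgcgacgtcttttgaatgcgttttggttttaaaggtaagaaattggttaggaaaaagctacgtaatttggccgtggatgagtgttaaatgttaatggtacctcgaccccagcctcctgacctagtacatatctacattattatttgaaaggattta
The window of CRK11 holds 7 copies of the core, that of CRK41 4, that of CRK39 2, that of CRK10 1 and that of CRK13 0. The windows shown do not stand for their courses. Of other members highest at 0.5 h, CRK12, CRK28, CRK30 and CRK40 had 0 copies and CRK31 had 4. Of others highest at 4 h, CRK18, CRK24 and CRK32 had 3 copies and CRK3 and CRK45 had 0. At least 1 copy stood in 30 of 40 member windows (75.0%) and in 50.8% of 24965 windows of genes in the table, and at least 3 copies in 22.5% of member windows against 4.96%. TGACG, a motif bound by TGA factors that can overlap the core in TTGACG, was searched on both strands too and stood in 16 of 40 member windows, against 23.3% of all windows. Array neighbours share ancestry, so these shares are a description. A match is no proof of binding, and the absence of these letters in a window says nothing about WRKY factors.

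**Figure D1:**
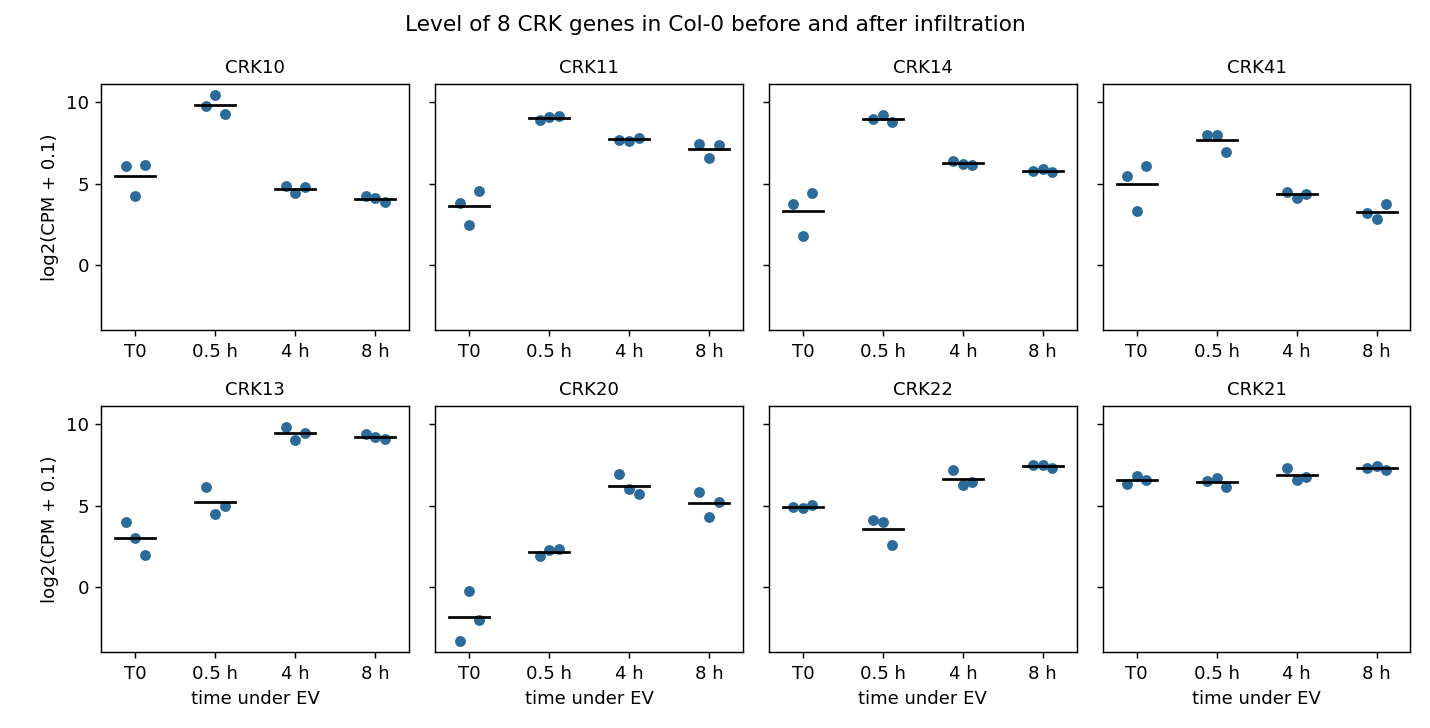
Levels of 8 CRK genes in Col-0 by time (T0, then 0.5, 4 and 8 h under EV), as log2(CPM + 0.1) on the vertical axis, with points for the 3 replicates and a bar for their mean. CRK10, CRK11, CRK14 and CRK41 stand highest at 0.5 h, CRK13 and CRK20 at 4 h, and CRK22 and CRK21 at 8 h.

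By 4 h under EV, 27 members were higher and 6 lower than at T0 in Col-0, against 23.1% and 25.7% of all genes, and at 8 h 26 were higher and 5 lower, against 19.1% and 22.5%. The medians were 2.12 at 4 h and 2.15 at 8 h on the log2 scale, and 0.02 over all genes at both times. At all 3 times 22 members were higher, as were 7.23% of all genes. Of T0 and the EV times, 0.5 h held the highest mean for 21 of the 38 members, 4 h for 10 and 8 h for 7. This ranking was not made over all genes and ignores spread. CRK42, for one, had 12.8 ± 2.9 CPM per kb of exon at 0.5 h and 12.7 ± 3.6 at 4 h (SD). Without the 10 libraries against their label, the 8 h count was 28 in place of 31, since CRK40 (-0.90, adjusted p = 0.063), CRK29 (1.46, adjusted p = 0.0533) and CRK8 (1.48, adjusted p = 0.105) lost their calls.

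Members with published roles in immunity took different courses. CRK45 (AT4G11890), a positive regulator of resistance to Pseudomonas, had 192, 151 and 137 CPM under EV at 8 h against 4.72, 3.26 and 4.08 CPM at T0, with log2 fold changes of 4.12 ± 0.54, 5.81 ± 0.58 and 5.31 ± 0.57 at 0.5, 4 and 8 h (edgeR, adjusted p = 3.16e-10, 1.22e-14 and 2.72e-13). CRK2 was higher by 2.03 ± 0.27 at 0.5 h (edgeR, adjusted p = 2.71e-10) and CRK19 by 3.15 ± 0.30 (adjusted p = 6.08e-16). CRK36 was higher by 5.39 ± 0.93 at 4 h (adjusted p = 5.44e-07) and CRK7, known to limit damage from extracellular oxidants, by 5.83 ± 1.04 at 8 h (adjusted p = 1.38e-06). CRK6 was called at 0.5 h (3.58 ± 0.78, adjusted p = 0.000105) and stood at -0.62 at 4 h with no call. CRK28 was higher at all 3 times, by 2.27 at 0.5 h, 1.84 at 4 h and 1.08 at 8 h on the log2 scale, and its 8 h call was lost when either replicate 1 (0.59) or replicate 3 (0.99) was left out. CRK28 and CRK29 overlap on the same strand over 470 exon bases, so reads there are of uncertain origin.

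Fewer members were lower than T0. CRK41, CRK40, CRK30, CRK10 and CRK16 were lower at both 4 and 8 h, 5 of the 38 tested. Of all genes, 14.3% were lower at both times in all 4 genotypes. The share in Col-0 alone was not counted and cannot be smaller, so these members do not stand out from the background. CRK4 was lower at 4 h (-2.28 ± 0.72, edgeR, adjusted p = 0.00433) with -1.31 at 8 h (adjusted p = 0.097). CRK40 had 157, 218 and 113 CPM under EV at 0.5 h, 13.9, 9.87 and 14.7 CPM at 4 h and 28.6, 41.0 and 26.1 CPM at 8 h, after 78.2, 62.7 and 58.1 CPM at T0. Its groups did not overlap, and its log2 fold changes against T0 were 1.29 ± 0.37, -2.37 ± 0.39 and -1.06 ± 0.37 (edgeR, adjusted p = 0.00409, 1.72e-07 and 0.0119), of which the 0.5 h call was lost without replicate 2 (0.83, adjusted p = 0.239) and the 8 h call without replicate 1 (-0.89, adjusted p = 0.0905). CRK41 at 4 h (-1.01 ± 0.42, adjusted p = 0.0291) was at the threshold and was not called under 7 alternatives, the lowest size being -0.45 without replicate 3. CRK30 had 1 count over the group at 4 h against 163 at T0, a ratio of 0.00697 with a 95% counting interval of 0.000175 to 0.0394. CRK22 was the only member called lower at 0.5 h (-1.22 ± 0.41, edgeR, adjusted p = 0.0159, lost without replicate 3 at -0.81) and was higher at 8 h by 2.49 ± 0.42 (adjusted p = 3.67e-07). CRK21 and CRK42 were called at no time.

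Some members came from near 0. CRK37 had 1 count over the T0 group, and its ratio of CPM to T0 was 38.85 at 0.5 h (95% counting interval 6.3823 to 1592.8), 72.714 at 4 h (12.592 to 2916.4) and 230.39 at 8 h (40.94 to 9138.8), intervals that cover counting error only. At 8 h this rested on replicate 1, with 11.4, 0.593 and 0.0790 CPM, and the call was lost without it (adjusted p = 0.103). CRK38 reached a ratio of 244.27 at 4 h (67.212 to 2023.5) and CRK32 a ratio of 64.761 (17.521 to 541.21).

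Per length of exon, the family's order changed with time. At T0 CRK21 stood highest at 40.3 CPM per kb, then CRK40 at 21.4 and CRK10 at 20.6, whose SD of 11.5 leaves those 2 not distinguishable. At 0.5 h under EV CRK10 led with 381 ± 155 CPM per kb (SD, n = 3), then CRK14 with 257 ± 39.8, and their spreads overlap. At 4 h CRK13 led with 270.2 ± 72.5 CPM per kb and CRK45 followed with 134 ± 12.3, and at 8 h they stood at 231 ± 22.6 and 95.1 ± 16.9. CRK13 had the highest mean at 8 h with each effector, at 446 ± 139 CPM per kb with AvrRps4, 397 ± 115 with AvrRpt2 and 120.0 ± 34.4 with AvrRpm1. With AvrRpm1 its spread overlapped that of CRK19 (89.7 ± 20.6). Of the 50-base windows of CRK13, 15.36% occur elsewhere in the genome. All 365 of these lie within the span of the CRK22 gene, but 0 windows of CRK22's own exons occur elsewhere. The matches are therefore not windows within CRK22 exons. For CRK6 and CRK8 the shares were 21.95% and 16.48%, mostly in each other. Counts of CRK13, CRK6 and CRK8 are thus less certain than those of the 24 members with under 1%.

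The array and the rest had like shares of called members. Its 20 members span 74.2 kb at chr4:12117491-12191704, and 16 of 20 were higher at 0.5 h against 13 of the 18 tested members elsewhere. At 4 h the counts were 14 of 20 and 13 of 18, and at 8 h 13 of 20 and 13 of 18. Neighbours differed: CRK10 was called lower than T0 at 4 and 8 h while CRK11 was called higher, and CRK21 had no call beside CRK20, higher at all 3 times, and CRK22, lower at 0.5 h and higher at 4 and 8 h.

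**Figure D2:**
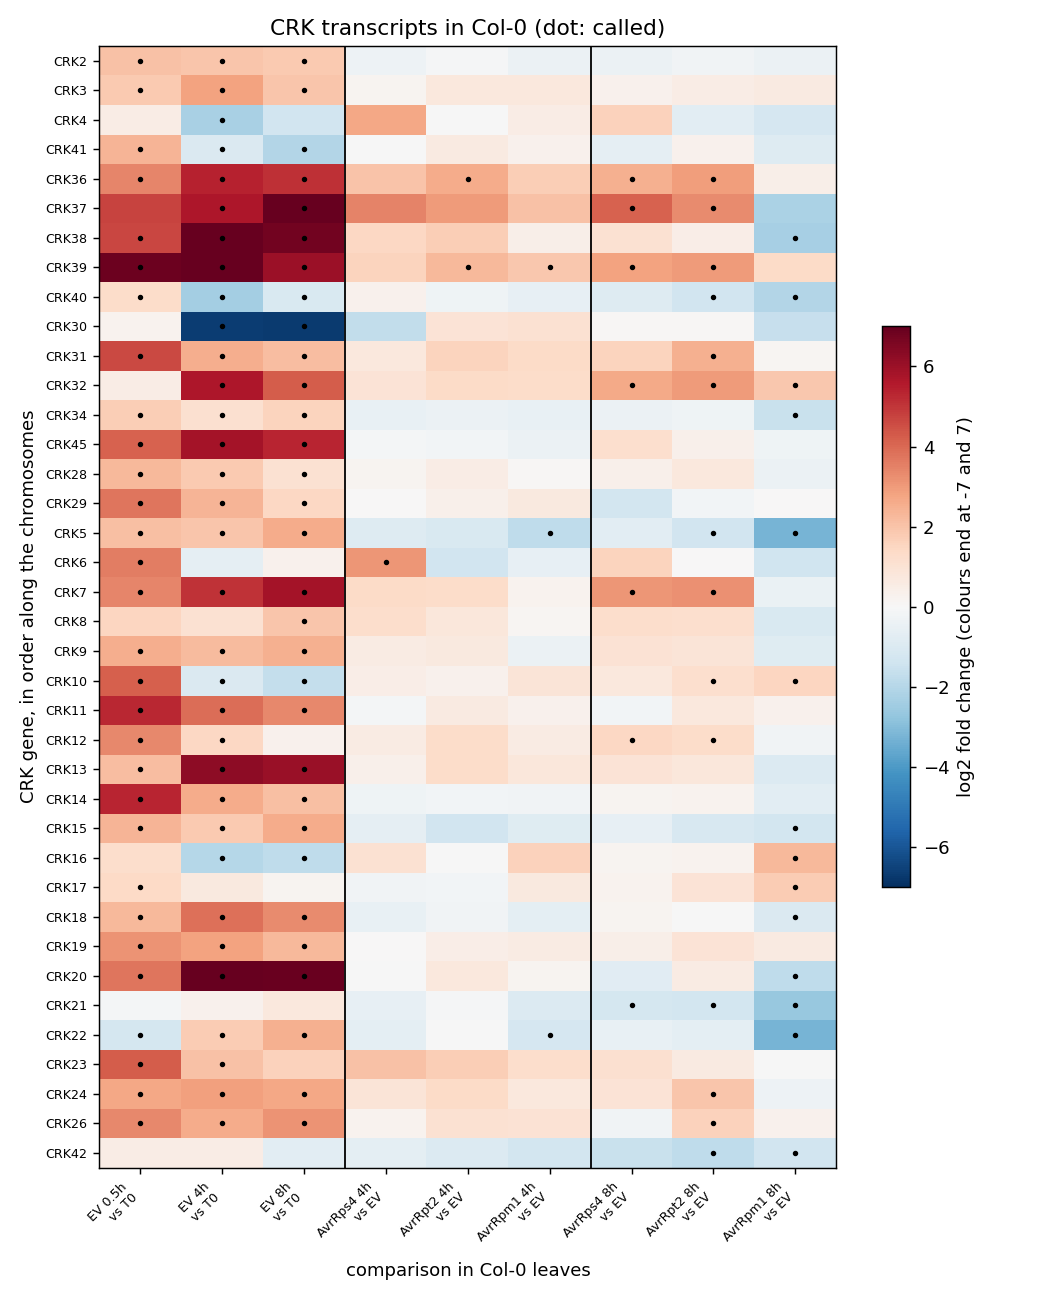
Log2 fold changes of the 38 tested CRK genes (rows) in 9 comparisons in Col-0 (columns), with colour limits at -7 and 7 and a dot where the change was called. EV against T0 shows mostly higher values with CRK41, CRK40, CRK30, CRK10 and CRK16 lower at 4 and 8 h, and AvrRpm1 against EV at 8 h shows 10 members lower.

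Most members also rose under EV in the helper mutants. At 0.5 h, 26 members were higher and 0 lower in helperless (12.4% and 5.57% of all genes), 28 and 0 in nrg1 (13.8% and 6.71%) and 26 and 0 in adr1 (12.3% and 5.3%). At 4 h the counts were 25 and 5 in helperless (20.6% and 22.3%), 24 and 6 in nrg1 (23.1% and 25.8%) and 24 and 5 in adr1 (21.4% and 24%). At 8 h they were 22 and 7 in helperless (18% and 21.6%), 25 and 7 in nrg1 (19.5% and 23.1%) and 26 and 5 in adr1 (17.3% and 21.2%). In all 4 genotypes 24 members were higher at 0.5 h, 22 at 4 h and 21 at 8 h, beside 10.7%, 17.4% and 14.3% of all genes. CRK40, CRK30, CRK10 and CRK16 were lower in all 4 at both later times, as were 14.3% of genes, with CRK4 at 4 h and CRK41 at 8 h. Without the 10 libraries the 8 h counts were 24 and 6 in helperless, 25 and 6 in nrg1 and 24 and 4 in adr1, and CRK40 was no longer among those lower in all 4 at 8 h. CRK10 at 0.5 h was higher by 4.12 ± 0.47 in helperless, 4.09 ± 0.47 in nrg1 and 3.68 ± 0.46 in adr1, beside 4.21 ± 0.47 in Col-0. Set directly against Col-0 at T0 or under EV, the mutants had 0 of 38 members called by edgeR in 12 comparisons, with 0 to 3 members at an unadjusted p under 0.05, beside at most 0.0762% of genes. DESeq2 was not run on these comparisons.

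At 0.5 h no member was called with an effector. In all 12 comparisons of an effector with EV at that time edgeR called 0 of 38 members, with 0 to 3 at an unadjusted p under 0.05, and DESeq2 was not run on them. The background was 0.0102% of genes higher with AvrRps4 in Col-0 and 0% in the other 11. With AvrRps4, 33 of 38 members lay below 0 in Col-0, 32 in adr1, 31 in helperless and 29 in nrg1, none of them called. The Col-0 median was -0.44 on the log2 scale, against -0.0 over all genes. With AvrRpm1 the numbers below 0 were 23, 29, 32 and 31 in the same order of genotypes, and with AvrRpt2 17, 11, 14 and 10. The share of all genes below 0 was not counted.

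Few members were called at 4 h in Col-0. AvrRpt2 raised CRK39, which had 144, 191 and 162 CPM against 32.4, 26.5 and 44.6 CPM under EV (2.26 ± 0.62, edgeR, adjusted p = 0.0211), and CRK36 (2.59 ± 0.78, adjusted p = 0.0468), 2 of 38 members beside 2.31% of genes, with 0.0254% lower. CRK39 did not overlap EV, but its call was lost without replicate 2 or 3, and that of CRK36 without the 10 libraries, which leaves 1 member. AvrRpm1 raised CRK39 (1.90 ± 0.62, adjusted p = 0.024) and lowered CRK5 and CRK22, 1 and 2 members beside 8.06% and 1.8% of genes. CRK5 (AT4G23130), whose overexpression is known to give cell death, had 5.17, 8.92 and 3.13 CPM with AvrRpm1 against 35.1, 14.3 and 9.78 CPM under EV (-1.78 ± 0.43, adjusted p = 0.00233). The highest EV value was that of replicate 1, and with replicate 1 left out of all groups the call was lost (-1.09, edgeR, adjusted p = 0.104). The calls of CRK39 and CRK22 with AvrRpm1 were lost with each replicate left out in turn. The AvrRpt2 count was then 0 to 3 and the AvrRpm1 count 1 to 2, and without replicate 1 it held 0 of the 3 members named. AvrRps4 raised only CRK6, 1 member beside 0.528% of genes with 0% lower, and it rested on replicate 1, with 21.0, 3.69 and 1.70 CPM against 1.36, 1.08 and 0.624 CPM under EV (3.08 ± 0.80, adjusted p = 0.0388). Leaving out replicate 1 gave 1.52 (adjusted p = 0.727), and the call was also lost without replicate 2 or 3.

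At 8 h AvrRps4 and AvrRpt2 raised an overlapping set in Col-0 led by CRK37, CRK7, CRK39, CRK32 and CRK36. AvrRps4 left 6 members higher and 1 lower than EV, beside 3.5% and 1.07% of genes, and a median of 0.31. AvrRpt2 left 10 higher and 4 lower, beside 9.67% and 4.26% of genes, and a median of 0.56. These comparisons share the EV samples, so their values are given side by side.

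CRK39 had 117, 132 and 144 CPM with AvrRpt2 and 68.3, 114 and 169.9 CPM with AvrRps4, against 21.7, 9.83 and 18.9 CPM under EV. No effector replicate overlapped EV, and the log2 fold changes were 2.96 ± 0.64 with AvrRpt2 (edgeR, adjusted p = 0.000322) and 2.80 ± 0.64 with AvrRps4 (adjusted p = 0.00153). CRK7 (AT4G23150) had 235, 243 and 254 CPM with AvrRpt2 and 132, 168 and 373 CPM with AvrRps4, against 41.1, 21.3 and 17.3 CPM under EV. These groups did not overlap, at 3.20 ± 0.83 (adjusted p = 0.00252) and 3.07 ± 0.83 (adjusted p = 0.00867). CRK37 (AT4G04500) had 78.4, 23.4 and 22.7 CPM with AvrRpt2 and 70.9, 80.9 and 66.4 CPM with AvrRps4, against 11.4, 0.593 and 0.0790 CPM under EV. It too did not overlap EV, at 3.31 ± 0.97 (adjusted p = 0.00738) and 4.12 ± 1.00 (adjusted p = 0.00323). CRK36 (AT4G04490), the FLS2 partner, had 511, 274 and 219.6 CPM with AvrRpt2 and 202, 253 and 292 CPM with AvrRps4, against 87.1, 19.99 and 26.4 CPM under EV. All of its effector replicates lay above EV, at 2.91 ± 0.79 (adjusted p = 0.00389) and 2.48 ± 0.78 (adjusted p = 0.031).

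CRK36, CRK37 and CRK39 lie in a second cluster of chromosome 4, with CRK38 and CRK40, from 2231717 to 2292965. CRK12 was also higher, by 1.28 with AvrRpt2 (edgeR, adjusted p = 0.0372) and 1.44 ± 0.48 with AvrRps4 (adjusted p = 0.0422). AvrRpt2 alone gave calls for CRK31 (adjusted p = 0.00235), which had 41.8, 34.4 and 28.5 CPM against 7.19, 4.07 and 7.19 CPM, and for CRK24 (1.93), CRK26 (1.61) and CRK10 (1.17). However, a direct test of AvrRps4 against AvrRpt2 at 8 h called 0 members by edgeR, with 6 at an unadjusted p under 0.05, beside 0.0203% of genes higher and 0.193% lower. DESeq2 was not run on that test. CRK21 was lower with both, at -1.28 with AvrRpt2 (adjusted p = 0.00115) and -1.25 ± 0.31 with AvrRps4 (adjusted p = 0.00373), and AvrRpt2 also lowered CRK42, CRK5 and CRK40.

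These counts leaned on few replicates. With AvrRps4 the count of 7 was 0 without replicate 2, 1 without replicate 3 and again 7 without replicate 1, of which 5 were among the original 7, CRK12 and CRK21 being lost. With AvrRpt2 the count of 14 was 1 without replicate 2 and at most 12 otherwise. Without the 10 libraries, which removes replicate 3 of EV in Col-0, AvrRps4 kept CRK39, CRK32 and CRK21, and CRK37 (3.52, adjusted p = 0.06), CRK7 (2.83, adjusted p = 0.0824), CRK36 (2.18, adjusted p = 0.196) and CRK12 (1.53, adjusted p = 0.124) kept their sign with no call, and AvrRpt2 kept 10 of 14. CRK39 with AvrRps4 was not called when replicate 2 (2.53) or replicate 3 (2.52) was left out, and with AvrRpt2 when replicate 2 was (2.63, adjusted p = 0.0568).

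AvrRpm1 at 8 h left more members lower than higher in Col-0. Relative to EV 4 members were higher and 10 lower, beside 16.6% and 11.6% of all genes, with a median of -0.62 over the members and 0.03 over all genes. CRK22 (AT4G23300) had 21.1, 18.7 and 13.2 CPM with AvrRpm1 against 179, 177 and 158 CPM under EV. Every AvrRpm1 replicate lay far below every EV replicate, and the log2 fold change was -3.28 ± 0.44 (edgeR, adjusted p = 5.47e-09). CRK5 had 1.08, 4.96 and 3.83 CPM against 35.8, 32.2 and 27.0 CPM (-3.26 ± 0.46, adjusted p = 2.73e-08) and CRK21 (AT4G23290) had 24.2, 37.1 and 15.5 CPM against 161, 174 and 145 CPM (-2.65 ± 0.32, adjusted p = 5.44e-10). Neither overlapped EV, and CRK5, CRK21 and CRK22 were called in each of the 10 alternatives. The others lower were CRK38 (-2.31 ± 0.84), CRK40 (-2.03 ± 0.39), CRK20, CRK34, CRK42, CRK15 and CRK18, from -1.79 to -1.04.

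Against this direction, CRK16, CRK32, CRK17 and CRK10 were higher with AvrRpm1 at 8 h. CRK17 (AT4G23250) had 73.3, 67.7 and 67.8 CPM against 23.1, 17.2 and 20.9 CPM under EV, with no overlap (1.77 ± 0.40, edgeR, adjusted p = 0.000249). CRK10 had 55.6, 48.3 and 40.8 CPM against 18.6, 17.4 and 14.2 CPM (1.52 ± 0.43, adjusted p = 0.00264), also without overlap. CRK16 (2.25 ± 0.59, adjusted p = 0.00134) stood at 2.35, 2.08 and 3.59 CPM against 0.257, 0.847 and 0.632 CPM, and it shares 776 exon bases with CRK17 on the same strand, so reads there are of uncertain origin. With each replicate left out the count of 14 was 10 to 11, of which 10 each time were among the 14, and without the 10 libraries they were again 14, of which 13 were the same members.

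The difference between effectors was tested directly. In Col-0 at 8 h 1 member was higher and 20 lower with AvrRpm1 than with AvrRpt2, beside 6.92% and 4.7% of genes, with medians of -1.21 over members and -0.05 over all genes. CRK37 had 1.57, 0.722 and 0.399 CPM with AvrRpm1 and 78.4, 23.4 and 22.7 CPM with AvrRpt2, without overlap (-5.55 ± 1.13, edgeR, adjusted p = 0.000257). CRK7 had 16.3, 33.9 and 6.78 CPM with AvrRpm1 and 235, 243 and 254 CPM with AvrRpt2, also apart (-3.68 ± 0.85, adjusted p = 0.00116). CRK13 had 418, 271 and 254 CPM with AvrRpm1 and 1378, 947 and 797 CPM with AvrRpt2 (-1.73 ± 0.63, adjusted p = 0.0396), a call that was lost with RLE factors, without replicate 2 or 3 and without the 10 libraries. Of the 21 members 15 were called with RLE factors and 18 without the 10 libraries. CRK16 was the member higher with AvrRpm1 (1.99 ± 0.58, adjusted p = 0.0102). Against AvrRps4, 2 members were higher and 17 lower with AvrRpm1 (10.9% and 7.1% of genes, median -1.19). At 8 h AvrRpm1 had the lowest mean of the 4 Col-0 groups for 23 of 38 members, EV for 10, AvrRps4 for 4 and AvrRpt2 for 1. This ranking was not made over all genes and ignores spread. It includes CRK30, with 0 counts with AvrRpm1 and 1 under EV.

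The mutants were compared likewise after the Col-0 values had been seen, and more members were again lower than higher. Lower and higher with AvrRpm1 than with AvrRpt2 at 8 h were 21 and 0 members in helperless (7.69% and 9.83% of genes, median -1.51), 14 and 1 in nrg1 (3.15% and 3.95%, median -1.1) and 19 and 2 in adr1 (4.98% and 9.5%, median -1.24). In all 4 genotypes 11 members were lower, as were 2.13% of all genes, namely CRK41, CRK36, CRK37, CRK38, CRK31, CRK5, CRK7, CRK9, CRK12, CRK21 and CRK22. Without the 10 libraries adr1 had 15 lower and 0 higher, and 11 members were again lower in all 4, with CRK34 in place of CRK41. In helperless leaves CRK7 had 6.75, 6.96 and 2.16 CPM with AvrRpm1 and 147, 211 and 268 CPM with AvrRpt2, without overlap (-5.30 ± 0.93, edgeR, adjusted p = 9.13e-06). The counts fell without replicate 3 to 10 in Col-0 and 13 in helperless, and without replicate 2 to 11 in Col-0 and 14 in helperless. With AvrRpm1 against AvrRps4 in Col-0, 9 in place of 19 were called without replicate 3.

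**Figure D3:**
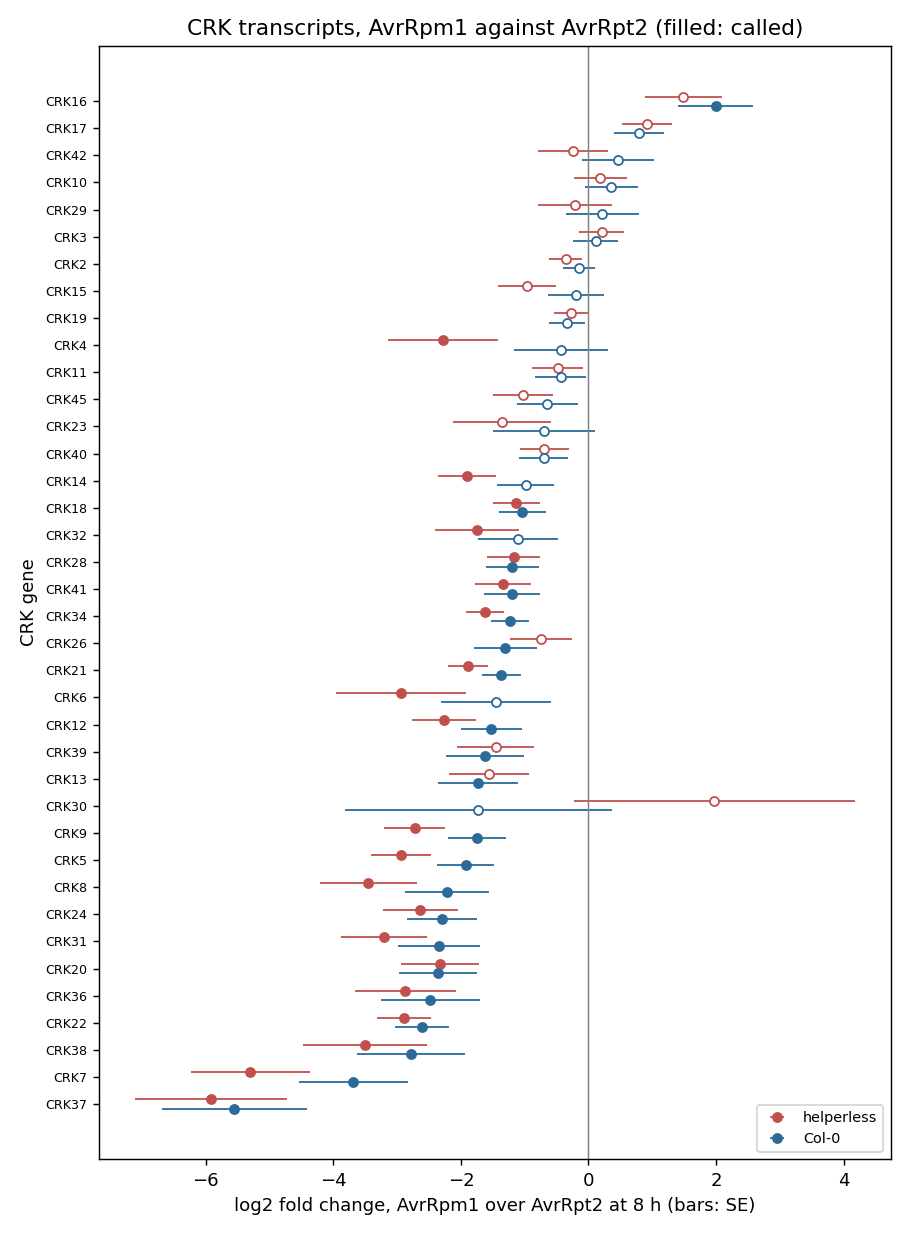
Log2 fold change of AvrRpm1 over AvrRpt2 at 8 h for each tested CRK gene with its SE, in helperless (red) and Col-0 (blue) leaves, where filled points were called. Nearly all called points lie below 0 in both genotypes, 21 in helperless and 20 in Col-0, and CRK37 and CRK7 lie lowest.

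Responses to AvrRpt2 and AvrRpm1 were present without the helpers. In helperless leaves at 8 h AvrRpt2 left 8 members higher and 3 lower than EV (10.4% and 8.53% of genes, median 0.70), or 9 and 1 with RLE factors, and AvrRpm1 left 4 higher and 16 lower (18.7% and 16.5%, median -0.86). CRK39 had 90.7, 139 and 100.1 CPM with AvrRpt2 against 6.00, 6.52 and 15.2 CPM under EV (3.57 ± 0.66, edgeR, adjusted p = 2.31e-05), with no overlap. CRK5 had 2.70, 2.71 and 0.883 CPM with AvrRpm1 against 27.8, 38.7 and 32.2 CPM under EV (-3.96 ± 0.48, adjusted p = 1.37e-10), and CRK22 stood at -3.23 (adjusted p = 3.3e-09). Without replicate 2 the AvrRpt2 count was 2 in place of 11 and the AvrRpm1 count 13 in place of 20, and without the 10 libraries they were 9 and 18. Tests of the difference between helperless and Col-0 in these responses at 8 h called 0 members by edgeR and by DESeq2, with 0 members for AvrRpt2 and 1 for AvrRpm1 at an unadjusted p under 0.05. At 4 h AvrRpt2 raised CRK23 alone in helperless (3.04 ± 0.76, adjusted p = 0.00804, beside 2.17% of genes with 0.0152% lower), or 3 members with the replicate number as a block, but 0 without replicate 2 or replicate 3. There AvrRpm1 raised 3 and lowered 2 (8.45% and 1.7%), or 0 in all with only the compared groups in the fit or without replicate 2.

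No member was called with AvrRps4 in helperless leaves. At 8 h edgeR and DESeq2 each called 0 of 38 members against EV, and edgeR called 0% of genes, with 0 members and 804 genes at an unadjusted p under 0.05 and a member median of -0.11. At 4 h it also called 0 members, with 0 at an unadjusted p under 0.05, and DESeq2 called 0. CRK39 had 4.81, 13.4 and 5.74 CPM with AvrRps4 against 6.00, 6.52 and 15.2 CPM under EV, overlapping ranges, with a log2 fold change of -0.24 ± 0.62. CRK37 had 0.373, 0.316 and 0.453 CPM against 0.856, 0.137 and 0.464 CPM, and CRK7 had 4.20, 13.2 and 31.5 CPM against 11.9, 8.45 and 38.1 CPM, both with overlap.

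The difference of the AvrRps4 response between helperless and Col-0 at 8 h was called for 1 member, CRK39, at -3.04 ± 0.88 on the log2 scale (edgeR, Benjamini-Hochberg adjusted p = 0.0431). All genes gave 0.188% higher and 1.56% lower, and 11 of 38 members had an unadjusted p under 0.05. Among these CRK32 stood at -3.23 ± 1.00 (adjusted p = 0.0663), CRK7 at -3.34 ± 1.12 (adjusted p = 0.0951), CRK37 at -4.47 ± 1.65 (adjusted p = 0.149) and CRK36 at -2.65 ± 1.07 (adjusted p = 0.198), with no call. The call for CRK39 was lost without the 10 libraries (-2.56, adjusted p = 0.368), without replicate 2 (-3.54, adjusted p = 0.282) and without replicate 3 (-2.01, adjusted p = 0.733). It was also lost with no filter (edgeR, adjusted p = 0.0539) and with only the compared groups in the fit (adjusted p = 0.0639). Over all alternatives its adjusted p ran from 0.000121, with unsummed libraries, to 0.733. For all other interactions of genotype and effector, 17 in number, edgeR called 0 members, with 0 to 7 at an unadjusted p under 0.05, beside at most 0.0102% of genes. DESeq2, run on the 5 of them that concern helperless leaves, called 0.

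AvrRps4 gave calls at 8 h in each mutant that lacks 1 helper family. Against EV 3 members were higher and 3 lower in nrg1 (2.65% and 0.345% of genes), and 0 were higher and 1, CRK21, lower in adr1 (1.55% and 0.137%). Without the 10 libraries the counts were 3 and 2 in nrg1 and 0 and 1 in adr1, beside 2 and 1 in Col-0. CRK39 had 49.6, 120.3 and 124 CPM in nrg1 with AvrRps4 against 10.2, 17.002 and 12.1 CPM under EV (2.90 ± 0.64, edgeR, adjusted p = 0.00161), without overlap. In adr1 it had 24.97, 20.7 and 75.2 CPM against 5.99, 6.69 and 16.6 CPM (2.06 ± 0.63, adjusted p = 0.0623), apart from EV but not called. The test of the difference from Col-0 called 0 members in both mutants by edgeR, with 0 in nrg1 and 4 in adr1 at an unadjusted p under 0.05, and for CRK39 the difference was 0.10 ± 0.85 in nrg1 and -0.74 ± 0.85 in adr1.

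**Figure D4:**
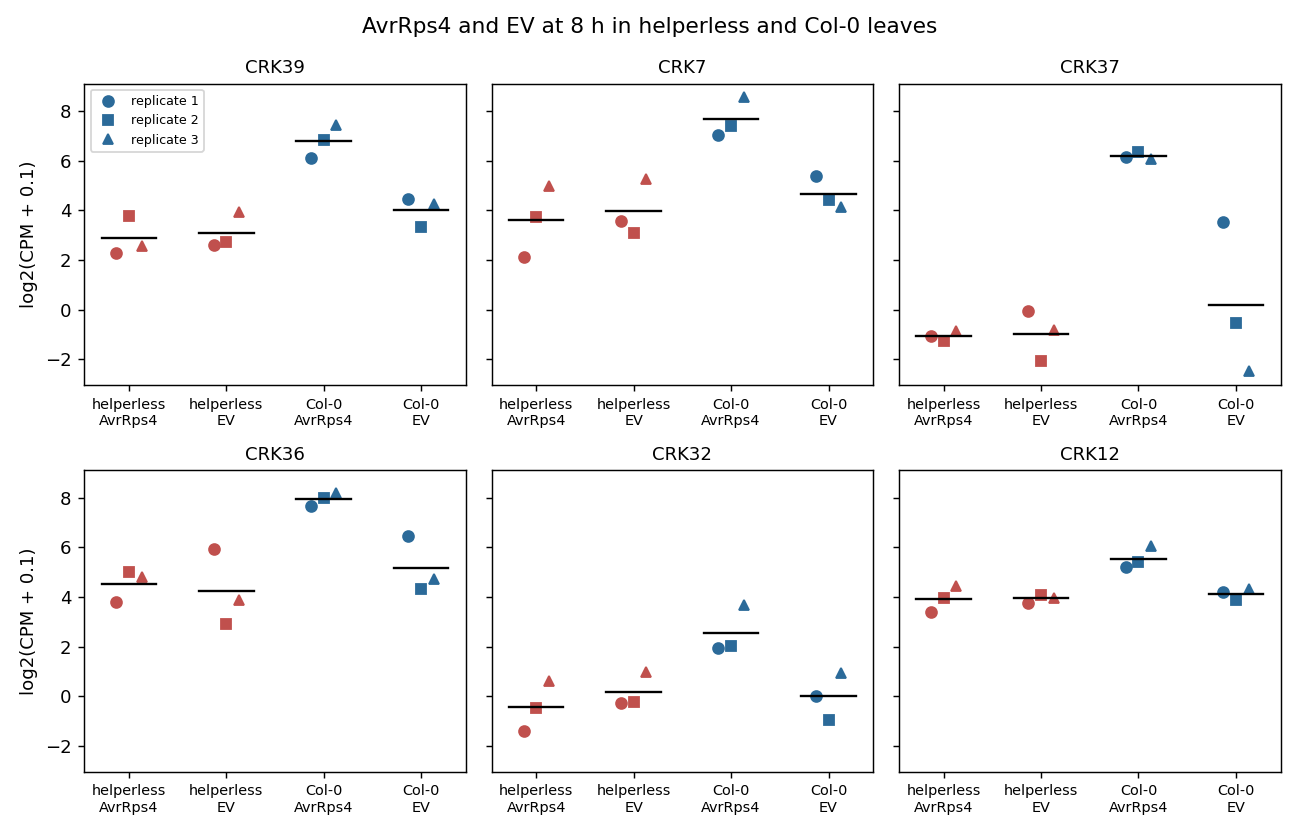
Levels of CRK39, CRK7, CRK37, CRK36, CRK32 and CRK12 at 8 h as log2(CPM + 0.1) on the vertical axis, in helperless with AvrRps4, helperless with EV, Col-0 with AvrRps4 and Col-0 with EV, where marker shape gives the replicate. The helperless AvrRps4 points overlap their EV points, while the Col-0 AvrRps4 points lie above all Col-0 EV points, as for CRK39 at 68.3 to 169.9 against 9.83 to 21.7 CPM.

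Related genes outside the 40 were read alongside. Of the CRK genes not among them, 3 were tested, and CRK43 rose at 0.5 h under EV by 4.46 ± 0.45 (edgeR, adjusted p = 5.45e-15). Among 8 partners in receptor complexes and the oxidative burst, 6 were higher at 0.5 h, 7 at 4 h and 5 at 8 h under EV, with RBOHD at 4.74 ± 0.43 (adjusted p = 2.8e-17), the kinase gene MPK3 at 4.41 ± 0.45 and the kinase gene BIK1 at 4.11 ± 0.41 at 0.5 h. The plasmodesmata-located proteins (PDLPs) carry DUF26 domains without a kinase, and of 7 tested 1, 1 and 2 were higher and 0, 3 and 3 lower at 0.5, 4 and 8 h, with PDLP3 at -5.26 ± 0.68 at 4 h (adjusted p = 1.53e-10). Over all genes 14%, 23.1% and 19.1% were higher and 8.6%, 25.7% and 22.5% lower at these times. PDLP5, which closes plasmodesmata, had 81.8, 67.7 and 78.9 CPM with AvrRpt2 and 83.9, 72.0 and 136 CPM with AvrRps4 at 8 h, against 15.2, 8.98 and 6.01 CPM under EV in Col-0, and no replicate overlapped EV (2.91 ± 0.46 and 3.26 ± 0.47, adjusted p = 1.29e-06 and 2.25e-07). In helperless leaves PDLP5 had 6.35, 4.11 and 8.46 CPM with AvrRps4 against 6.55, 7.55 and 12.98 CPM under EV, and its response differed from that of Col-0 by -3.78 ± 0.64 (adjusted p = 0.000183), or by -3.15 ± 0.70 (edgeR, adjusted p = 0.0234) without the 10 libraries.

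Markers of leaf cell types moved as well. The summed level of 4 mesophyll markers in Col-0 was 58139 to 66517 CPM at T0, 62892 to 68161 CPM at 0.5 h, 7637 to 12581 CPM at 4 h and 1700 to 7705 CPM at 8 h under EV. All 4 were called lower at 4 and 8 h, none was at 0 counts, and none was called at 0.5 h. At 8 h in Col-0 the sum was 1768 to 8771 CPM with AvrRpm1, 577 to 11331 CPM with AvrRpt2 and 1037 to 6916 CPM with AvrRps4, overlapping EV. Guard cell markers (6) summed to 38.7 to 49.1 CPM under EV at 8 h against 46.1 to 81.5 CPM at T0, vascular markers (7) to 449 to 507 CPM against 533 to 634 CPM, and epidermal markers (6, with GL1 at 0 in most groups) to 87.1 to 125 CPM against 202 to 447 CPM. Already at 0.5 h under EV the guard cell sum was 33.5 to 38.0 CPM, below every T0 replicate. The vascular sum (577 to 732 CPM) and the epidermal sum (210 to 288 CPM) overlapped T0 at that time. With AvrRpm1 against AvrRpt2 at 8 h, 2 of 4 mesophyll markers (median log2 fold change 1.79) and 3 of 5 tested epidermal markers (2.19) were higher in helperless leaves, and 0 of 4 (0.43) and 2 of 5 (1.49) in Col-0, and their part in the lower member levels was not tested. Root hair markers (4) summed to at most 0.356 CPM in Col-0. Photosynthesis genes are regulated themselves, and the part of cell makeup in the changes at 0.5, 4 and 8 h was not tested.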

How the data were processed

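Poly(A) messenger RNA of leaf discs was sequenced in 305 libraries, and the values used are read counts per gene as deposited by the authors. FastQC 0.11.7, Trimmomatic 0.36, HISAT2 2.1.0, featureCounts of the Subread package and the TAIR10 genome are named in the submitters' processing notes. How reads with several matches or of either strand were counted is not given in the sources used here. Of 156 replicates, 149 had 2 libraries, which were summed though the labels do not say what the second one is, and 7 had 1, and library totals ran between 3128554 and 23257821 counts.

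The summed counts were fitted across all genes with edgeR 4.0.16 in R 4.3.3 (TMM factors 0.6549 to 1.497, filterByExpr, a mean for each of 52 groups, robust quasi-likelihood test), and p-values were adjusted by the Benjamini-Hochberg method over the 19687 genes left. CPM use the same factors. SEs are the log2 fold change divided by the root of its F value. On simulated counts of 18046 genes for AvrRpt2 against EV at 4 h in Col-0, the test called 16% of genes changed by a fold of 2, 68% at 4, 92% at 8 and 96% at 16, and 4 of 17846 unchanged genes. The simulation fitted fewer groups than 52 and drew the changed genes from those above a minimum mean count. Its rates are therefore not those of the main fit or of members with few counts.

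The alternatives were RLE factors, no filter, DESeq2 1.42.0, unsummed libraries, a fit of only the compared groups, a replicate block, leaving out each replicate number in turn and leaving out the 10 libraries against their label. Alternatives for AvrRpm1 against the other effectors and for helperless leaves at 8 h were added after seeing the data, as was leaving out the 10 libraries in all other comparisons and for PDLP5. Replicate numbers come from the labels. Same-numbered samples had correlated deviations (every pair over 0.1, 13505 genes) in 5 of 18 comparisons, and r ran from -0.48 to 0.66 over all 18. In those 5 the numbers were taken to pair the samples.

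Named are the called members with the largest changes in each comparison (up to 8), members with published immune roles, up to 3 genes per related list and members that ran against the rest. Members, lists and motifs were chosen with earlier results of these data known. Promoters and gene positions are from RefSeq's TAIR10.1, which matched 24966 of 25320 identifiers by locus tag. A counting interval of 95% covers counting error only.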

Additional observations from a re-analysis of the deposited data

Results flagged for a closer look

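Of 38 members, CRK39 alone was called for a response to AvrRps4 at 8 h that differed between helperless and Col-0 leaves. Over all genes that test called 0.188% higher and 1.56% lower. The log2 fold change of CRK39 against EV was -0.24 ± 0.62 in helperless leaves and 2.80 ± 0.64 in Col-0, a difference of -3.04 (SE 0.88, edgeR's quasi-likelihood interaction test, Benjamini-Hochberg adjusted p = 0.0431). All 3 AvrRps4 replicates lay above EV in Col-0, and the helperless ranges overlapped. Among the EV libraries at 8 h, replicate 3 holds libraries against their label in both genotypes, and without the 10 such libraries the difference was -2.56 (adjusted p = 0.368). Their part in the result was not tested further. The call was also lost with no filter, with only the compared groups in the fit and without replicate 2 or replicate 3.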

How the results depend on the processing

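Of 234 member results called, repeated 2333 times over 10 alternatives, 2043 kept their call, 290 lost it and 0 changed sign, and most losses came without replicate 2 (81) or replicate 3 (70). Members called with AvrRps4 at 4 h in Col-0 were 1, and 0 with no filter or with only the compared groups, 2 with DESeq2 or the replicate block, 6 with unsummed libraries and 0 to 2 with a replicate left out. AvrRpt2 at 4 h had 2, and 1 with RLE factors, no filter or the 10 libraries left out, 9 unsummed, 6 with only the compared groups and 0 to 3 with a replicate left out. AvrRpm1 at 4 h had 3, and 10 unsummed, 5 with only the compared groups and 1 to 2 with a replicate left out. In helperless leaves at 4 h AvrRpt2 had 1, and 2 with DESeq2, 5 unsummed, 4 with only the compared groups, 3 with the block and 0 to 3 with a replicate left out, and AvrRpm1 had 5, and 11 unsummed, 0 with only the compared groups and 0 to 7 with a replicate left out. At 8 h in Col-0 AvrRps4 had 7, and 14 unsummed, 3 without the 10 libraries and 0 to 7 with a replicate left out, and AvrRpt2 had 14, and 1 to 12 with a replicate left out. The AvrRps4 difference between helperless and Col-0 at 8 h had 1, and 0 with no filter, only the compared groups or the 10 libraries left out, 2 with DESeq2, 10 unsummed, 3 with the block and 0 to 2 with a replicate left out. With a replicate left out, AvrRpm1 against AvrRpt2 had 10 to 15 in Col-0 and 13 to 22 in helperless, AvrRpm1 against AvrRps4 in Col-0 had 9 to 19, and against EV in helperless AvrRpt2 had 2 to 14 and AvrRpm1 13 to 15. Unsummed libraries treat the 2 libraries of a replicate as replicates, which adds residual degrees of freedom. The cause of the other changes was not tested. Of the 5 comparisons whose numbers pair the samples, the block moved the count by over 1.5 times in AvrRpt2 at 4 h in helperless leaves alone. RLE factors shifted the median of all genes by up to 0.11 on the log2 scale. Members near 0 counts, such as CRK37 and CRK30 at T0 or 4 h, are limited by depth.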
